A study of Mus musculus with 6 samples.

Results

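Integrins are the cell's main receptors for matrix and for other cells, and 33 genes of this system were followed here: 18 alpha subunits, 9 beta subunits, 3 ICAM ligands and 3 integrin activators. They were chosen by name, each was read from its own probe set (the brightest one where a gene had several), and all 33 were measured among 19938 genes tested. The arrays came from mouse URE cells, a leukaemia line, transduced with a lentiviral vector that carries copGFP and a short hairpin. In the control group (shControl, 3 arrays) the hairpin targeted luciferase, and in the other group (shHLX, 3 arrays) it targeted Hlx, a homeobox transcription factor gene whose part in blood cell differentiation and leukaemia the study examined. GFP-positive cells were sorted in both groups and kept in culture for several days, and 10 ng of RNA was amplified for each array. As background, the line's name refers to the upstream regulatory element of the gene for the transcription factor PU.1, whose loss would be shared by both groups. The labels do not give the line's genotype. The labels also do not say whether the 3 arrays of a group came from separate transductions or cultures, so the p-values rest on a spread between arrays that could be purely technical.

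An integrin is a pair of 1 alpha and 1 beta subunit, and the pairing sets which ligand it binds. The beta subunit encoded by Itgb2 is the leukocyte one: with Itgal it forms LFA-1, which binds ICAMs on other cells, and with Itgam it forms Mac-1, a complement and fibrinogen receptor of neutrophils and monocytes. Itgb1 pairs with many alpha subunits, and Itgb5 pairs with Itgav as a vitronectin receptor. Integrins at rest bind poorly until talin (Tln1) and a kindlin (Fermt3 in blood cells, Fermt2 elsewhere) attach to the beta subunit's tail inside the cell.

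The targeted gene itself was read first, as a check of the labels. Hlx gave 10.12 to 10.21 (log2 signal) on the shControl arrays and 10.06 to 10.17 on the arrays labelled shHLX, so the groups overlapped (limma adjusted p = 0.479), and every direction below rests on the labels. Array medians over all genes lay between 7.33 and 7.44. A second principal component with 18.1% of the variance separated shControl 1 and shHLX 3 from the remaining 4 arrays, and where leaving these 2 out ends a call, that is given. The probe sets of 16 myeloid marker genes, such as Lyz2, Mpo and Kit, had a median signal at the 87.7th percentile of all genes, against the 15.6th percentile for 15 lymphoid markers and the 43.2nd for 9 megakaryocyte markers. Signals of different probe sets are not amounts of RNA, and no detection calls were used here.

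On the arrays labelled shHLX, Itgam and Itgb2, which together encode Mac-1, were higher, while Itgal, Itgb5 and the ligand gene Icam2 were lower (limma, Benjamini-Hochberg adjusted p under 0.05 over all 19938 genes, termed called below). That is 5 of 33 genes or 15.2%, where 6.18% of all genes were called. The calls of Itgb2 and Icam2 were not stable when single arrays were left out, as given below. By direction, 2 of the 33 were called higher, where 3.75% of all genes were, and 3 were called lower, where 2.43% were. The 2 groups of arrays did not overlap for 9 of the 33 genes (27.3%), and for 26.2% of all genes. An unadjusted p under 0.05 was found for 8 of the 33 (24.2%), and for 19.4% of all genes. The median change of the 33 was -0.06 on the log2 scale, beside -0.01 over all genes. The 33 genes were chosen with earlier results of these arrays known, so nothing about the list as a whole is read from these counts.

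**Figure D1:**
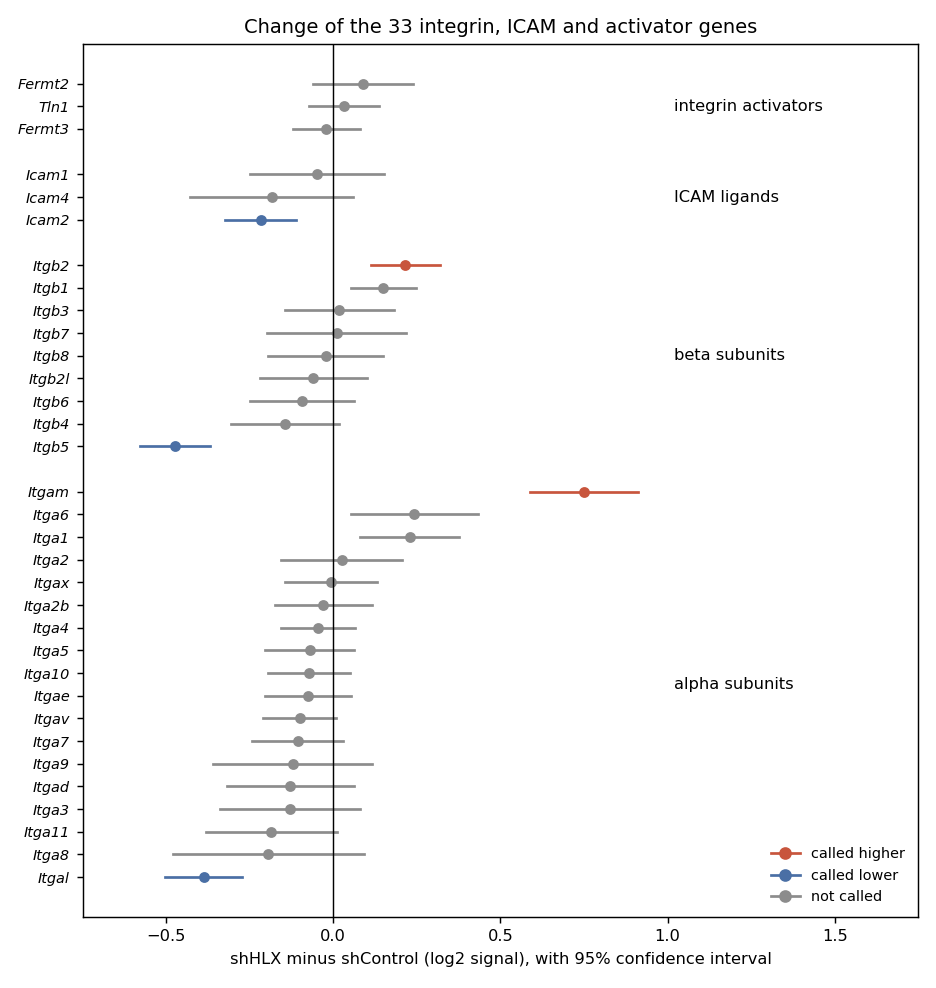
Change of each of the 33 genes, shHLX minus shControl on the log2 signal scale (horizontal axis), with limma's 95% confidence interval as a line, grouped by role (3 arrays per group). Itgam (0.75) and Itgb2 (0.22) were called higher in red, Itgal (-0.39), Itgb5 (-0.47) and Icam2 (-0.22) lower in blue, and the 28 genes in grey were not called.

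Promoter sequence was at hand for 24 of the 33 genes and for 2 of the 5 called ones, Itgam and Itgb5, which had the largest rise and the largest fall of the list. They are shown as the called genes with a sequence at hand, and the calls of both held whichever single array was dropped. Each sequence is the 250 bases before the annotated start in RefSeq's GRCm38.p6, on the plus strand, at chr7:128062390-128062639 for Itgam and chr16:33829415-33829664 for Itgb5. Capitals mark matches on either strand to GAGGAA, letters of sites for the ETS factor PU.1, or to GGGCGG, the letters of a GC box. The shorter core GGAA, which ETS factors share, was not marked by itself.
Itgam: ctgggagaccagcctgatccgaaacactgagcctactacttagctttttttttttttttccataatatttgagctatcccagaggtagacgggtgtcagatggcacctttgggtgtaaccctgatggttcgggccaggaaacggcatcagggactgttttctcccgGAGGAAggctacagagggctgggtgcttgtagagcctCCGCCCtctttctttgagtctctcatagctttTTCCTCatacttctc
Itgb5: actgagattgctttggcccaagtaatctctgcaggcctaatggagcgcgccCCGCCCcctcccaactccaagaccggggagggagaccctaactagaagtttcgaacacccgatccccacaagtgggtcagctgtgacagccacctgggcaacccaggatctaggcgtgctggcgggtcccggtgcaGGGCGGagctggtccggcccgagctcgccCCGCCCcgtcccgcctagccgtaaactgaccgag

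In the Itgam sequence GAGGAA occurred on the gene's strand from base 84 to base 79 before the start, and again on the opposite strand from base 15 to base 10. It also held 1 GGGCGG match, on the opposite strand. The Itgb5 sequence held 3 GGGCGG matches and none to GAGGAA. Of 32851 promoter sequences of this length, 23.3% held GAGGAA and 32.7% held GGGCGG on either strand, so these letters are common, and a match describes the sequence and is no evidence of binding.

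Among the alpha subunits, 1 of 18 was called higher, 1 was called lower and 16 were not called. Itgam, which encodes the alpha subunit of Mac-1 (CD11b; probe set 10557862, Entrez gene 16409), gave 8.01, 8.07 and 7.89 on the shControl arrays and 8.82, 8.62 and 8.78 on the shHLX arrays. The lowest shHLX array stood clear of the highest control array, by a gap wider than the range inside either group. The means were 7.99 ± 0.091 (SD, n = 3) and 8.74 ± 0.10 (SD, n = 3), a rise of 0.75 on the log2 scale (SE 0.069) or 1.68-fold (limma adjusted p = 0.000615). In bulk RNA, a change in the share of cells that express a gene and a change in RNA per cell cannot be told apart. This holds here and for any gene below.

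Itgal, which encodes the alpha subunit of LFA-1 (CD11a; probe set 10557591, Entrez gene 16408), moved the other way. It gave 8.13, 8.15 and 8.09 on the shControl arrays and 7.75, 7.79 and 7.66 on the shHLX arrays, again without overlap. The log2 difference was -0.39 (SE 0.049, adjusted p = 0.00313 by limma), from 8.12 ± 0.029 (SD, n = 3) to 7.74 ± 0.067 (SD, n = 3). Both subunits compete for the same beta partner, Itgb2, so their balance was also followed within each array. The Itgam signal minus the Itgal signal was -0.13, -0.08 and -0.20 on the shControl arrays and 1.06, 0.83 and 1.12 on the shHLX arrays. The balance therefore shifted by 1.14 on the log2 scale towards Itgam on the shHLX arrays (exact two-sided permutation test over arrays, p = 0.1, the smallest that 3 arrays against 3 can give). As Itgam rose and Itgal fell, each without overlap, this p follows from the 2 changes and adds no support to them. The sign of each array's value compares 2 probe sets and has no meaning of its own, and only the shift between groups does.

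The other alpha partners of Itgb2 were not called. Itgax, which encodes CD11c of dendritic cells and macrophages and lies next to Itgam on chromosome 7, gave 6.26, 6.21 and 6.17 on the shControl arrays and 6.19, 6.31 and 6.12 on the shHLX arrays. Its change of -0.01 had a 95% confidence interval of -0.14 to 0.13, which leaves out a change in signal of the size of that of Itgam. The probe set was dim, at the 26.7th percentile of all genes, so a change in RNA may be understated. Itgad, which encodes CD11d and is the next gene along, had a change of -0.13 (limma adjusted p = 0.443) in the probe set used and of 0.16 (adjusted p = 0.387) in its dimmer probe set. These disagreed in sign, and neither was called.

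The remaining alpha subunits showed small differences. Itga1, an alpha partner of Itgb1 in a collagen receptor, gave 8.84, 8.92 and 8.72 on the shControl arrays and 9.004, 9.03 and 9.13 on the shHLX arrays. The groups did not overlap, but the 1.17-fold difference (95% confidence interval 1.06 to 1.30) was not called (limma adjusted p = 0.0884). Itga6, which encodes a laminin receptor subunit, also had no overlap, with a change of 0.24 (adjusted p = 0.153). Its probe set was dim, at 5.99 to 6.19 on the shControl arrays and 6.21 to 6.45 on the shHLX arrays.

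Itga4, whose product with that of Itgb1 binds VCAM1 and fibronectin and holds progenitors in the marrow, gave 11.23, 11.33 and 11.26 on the shControl arrays and 11.23, 11.19 and 11.27 on the shHLX arrays. The groups overlapped, and the interval of the change, -0.16 to 0.07, leaves out anything beyond a modest shift in either direction. Itga5, of the classic fibronectin receptor, gave 9.27, 9.27 and 9.38 against 9.16, 9.23 and 9.32, with a change of -0.07 (-0.20 to 0.06). The other 11 alpha subunits, Itgav aside, were not called either. They were Itga2 and Itga10 of collagen receptors, Itga11, Itga2b of platelets, Itga3 and Itga7 of laminin receptors, Itga8, Itga9, Itgae of mucosal lymphocytes, and Itgax and Itgad as above. The changes of these 11 ran from -0.19 for Itga8 to 0.02 for Itga2.

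Several of these 11 have a clear home outside the myeloid lineage, and their values are given for that reason. Itga2b, the alpha subunit of the platelet fibrinogen receptor, gave 7.31, 7.32 and 7.28 on the shControl arrays and 7.40, 7.25 and 7.17 on the shHLX arrays. Its partner Itgb3 gave 6.42, 6.41 and 6.45 against 6.49, 6.56 and 6.29. In both platelet genes shHLX 3 was the lowest array and another shHLX array the highest, so the groups overlapped. Itgae, the partner of Itgb7 that binds E-cadherin, gave 6.38, 6.53 and 6.48 against 6.33, 6.44 and 6.40, with a change of -0.08 (95% confidence interval -0.21 to 0.05).

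Itga11, a collagen receptor subunit of fibroblasts, gave 6.505, 6.79 and 6.83 on the shControl arrays and 6.54, 6.53 and 6.501 on the shHLX arrays. The shControl 1 value fell among the shHLX values and the other control values lay above them all. The change of -0.19 was not called with all arrays (adjusted p = 0.283), and was called without shControl 1 (-0.29, adjusted p = 0.023) or without shControl 1 and shHLX 3 together (0.0455). Itga8, a receptor subunit of mesenchymal cells, had a change of about the same size but the widest spread of the 33 genes, with values of 5.79, 6.16 and 6.17 against 6.05, 5.73 and 5.77 (SE 0.12, adjusted p = 0.443). Itga3 and Itga9 each had 1 low shHLX array, shHLX 3, at 6.34 and 6.12, where their other 5 values lay between 6.52 and 6.72 and between 6.37 and 6.59.

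Among the 9 beta subunits, 1 was called higher, 1 was called lower and 7 were not called. Itgb2 (CD18; probe set 10364262, Entrez gene 16414), the partner of Itgam, Itgal, Itgax and Itgad, gave 10.88 on all 3 shControl arrays and 11.08, 11.15 and 11.05 on the shHLX arrays. Every shHLX value was above every control value. By limma this was 1.16-fold (95% confidence interval 1.08 to 1.25, adjusted p = 0.0291). The call ended when any 1 of 5 arrays was left out, all but shHLX 3 (adjusted p 0.0433 to 0.119 over the 6), and without shControl 1 and shHLX 3 together (0.0874). The 3 control values had an SD of 0.0016, beside a median SD of 0.0728 within groups over all genes.

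Itgb5 (probe set 10435305, Entrez gene 16419), the beta subunit of a vitronectin receptor, had the largest fall of the 33 genes. It gave 10.13, 10.19 and 10.19 on the shControl arrays and 9.66, 9.74 and 9.69 on the shHLX arrays, with narrow groups far apart. The log2 difference was -0.47 (SE 0.045, adjusted p = 0.000663 by limma), from 10.17 ± 0.036 (SD, n = 3) to 9.70 ± 0.039 (SD, n = 3). Its alpha partner Itgav gave 10.16, 10.24 and 10.18 on the shControl arrays and 10.11, 10.04 and 10.14 on the shHLX arrays. These groups did not overlap, but the difference of -0.10 was not called (SE 0.047, adjusted p = 0.299). Itgav also pairs with Itgb1, Itgb3, Itgb6 and Itgb8, none of which was called (changes of 0.15, 0.02, -0.09 and -0.02).

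Itgb1, the partner of most alpha subunits, gave 10.61, 10.58 and 10.62 on the shControl arrays and 10.72, 10.78 and 10.76 on the shHLX arrays. As for Itga1, the groups did not overlap and the difference, 1.11-fold (95% confidence interval 1.04 to 1.19), was not called (adjusted p = 0.0914). Itga1 and Itgb1 were both called when the variance model had an intensity trend, and among genes above the median signal, and Itga1 also with array weights (adjusted p = 0.0429). Itgb7, the gut-homing partner of Itga4 and Itgae, had a change of 0.01 (95% confidence interval -0.20 to 0.22). It gave 6.71, 6.93 and 6.73 on the shControl arrays and 6.90, 6.63 and 6.87 on the shHLX arrays, which are interleaved. Itgb4 of epithelial hemidesmosomes gave 7.22, 7.33 and 7.39 against 7.22, 7.25 and 7.04, a change of -0.15 that was not called (adjusted p = 0.309). Itgb2l, a gene related to Itgb2, had a change of -0.06 (95% confidence interval -0.22 to 0.10).

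**Figure D2:**
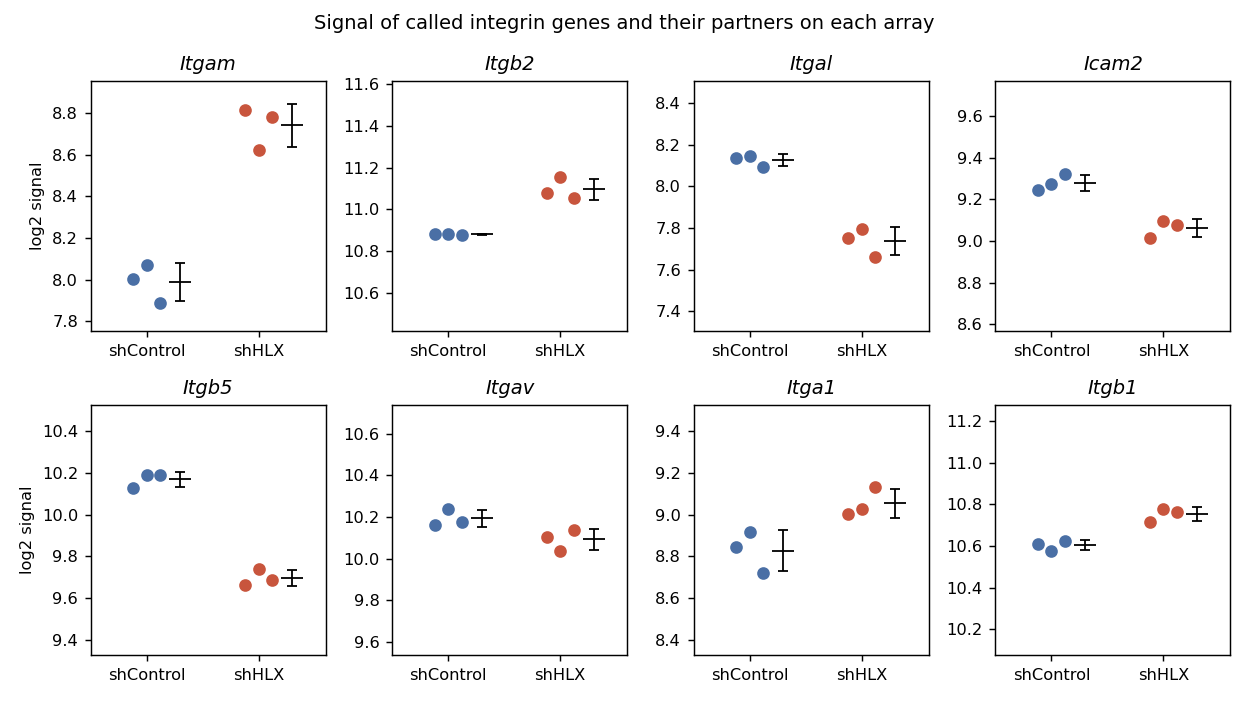
Log2 signal (vertical axis, the same span in every panel) of the 5 called genes and of Itgav, Itga1 and Itgb1 on each array, with points for arrays and a bar for mean and SD (n = 3 per group). The groups are apart in all 8 panels, by far the most for Itgam, Itgb5 and Itgal, while Itgav, Itga1 and Itgb1 were not called. Groups were apart for 9 of the 33 genes (27.3%), which include these 8, and for 26.2% of all genes, so being apart is common on these arrays.

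Of the 3 ICAM genes, Icam2 was called lower and the others were not called. Icam2 (probe set 10392177, Entrez gene 15896), a ligand of LFA-1 found on leukocytes, platelets and endothelium, gave 9.24, 9.27 and 9.32 on the shControl arrays and 9.01, 9.10 and 9.08 on the shHLX arrays. The groups did not overlap, and the log2 difference was -0.22 (SE 0.046, adjusted p = 0.0321 by limma). This call ended when any 1 of the 6 arrays was left out (adjusted p 0.0627 to 0.143), without shControl 1 and shHLX 3 together (0.0904), with arrays centred on their medians (0.0785) and without variance moderation (0.0599). Icam1, the ligand of both LFA-1 and Mac-1 that inflammation induces, gave 7.53, 7.67 and 7.79 on the shControl arrays and 7.74, 7.63 and 7.47 on the shHLX arrays, fully overlapping. Icam4, an ICAM of red cells, gave 6.90, 7.04 and 7.03 on the shControl arrays and 6.68, 7.06 and 6.68 on the shHLX arrays, so 1 shHLX array lay above the controls and 2 below. Its change of -0.18 was not called (adjusted p = 0.391), except without shHLX 2 (-0.31, adjusted p = 0.0388).

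None of the 3 activators was called by limma, and none had an unadjusted p under 0.05 or was called without variance moderation. Tln1, which encodes talin, gave 11.29, 11.35 and 11.26 on the shControl arrays and 11.33, 11.30 and 11.36 on the shHLX arrays. Fermt3, which encodes the kindlin of blood cells, gave 11.11, 11.06 and 11.08 against 11.07, 11.10 and 11.02. In both genes the groups were interleaved, with 95% confidence intervals of the change of -0.07 to 0.14 for Tln1 and -0.12 to 0.08 for Fermt3. Fermt2, the kindlin of adherent cells, had a change of 0.09 (-0.06 to 0.24) in a dim probe set.

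Calls on these arrays fell more often on bright probe sets: 10.1% of all genes above the median signal were called, and 2.27% of those at or below it. Of the 15 integrin genes with a mean signal above the median of all genes, 5 were called, and of the 18 below it, 0 were called by limma and 1, Itga6, had an unadjusted p under 0.05 (0 also without variance moderation). In those 18, changes ran from -0.19 to 0.24, and 13 were negative. The array shHLX 3 had the lowest value of all 6 arrays in 14 of the 28 genes that were not called and in 15 of all 33 (45.5%), where it was lowest for 30.1% of all genes tested. Without shHLX 3, 10 of the 18 dimmer genes had a negative change in place of 13, and 48.2% of all genes in place of 54.6%.

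**Figure D3:**
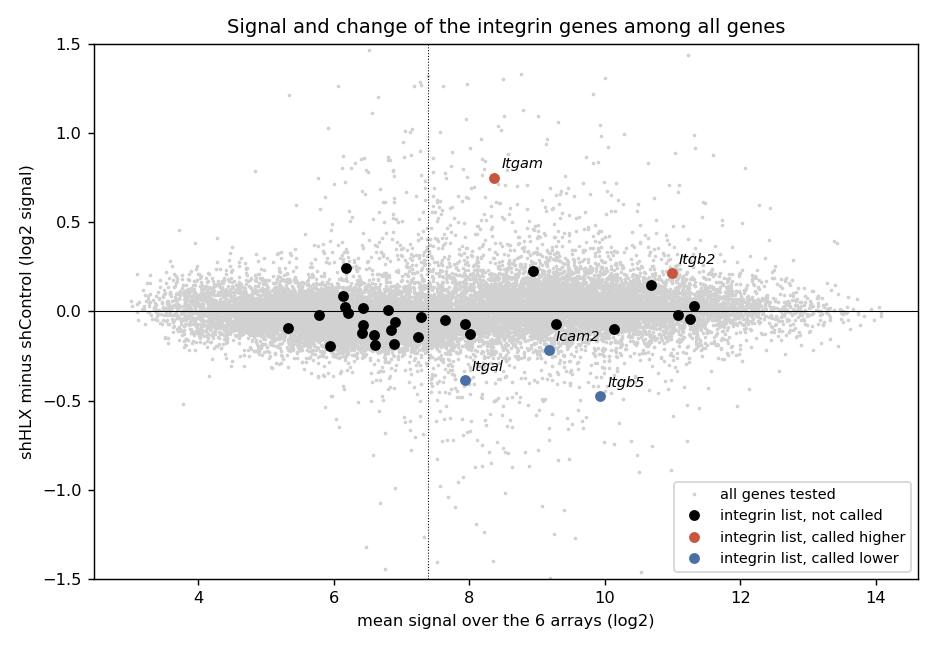
Change (shHLX minus shControl, log2, vertical axis drawn from -1.5 to 1.5) against mean log2 signal over the 6 arrays, for all 19938 genes in grey and the 33 genes as large points, with a dotted line at the median signal. The 5 called genes lie to the right of the line, and Itgam, at 0.75, stands highest of the 33.

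Genes that act with integrins were taken from 2 further lists. Of 28 measured integrin ligands outside the ICAMs (30 listed), 4 were called higher, 0 were called lower and 24 were not called, or 14.3% called beside 6.18% of all genes, with a median change of -0.01. Adam8, a membrane metalloprotease with a disintegrin domain, gave 8.74, 8.51 and 8.73 on the shControl arrays and 9.69, 9.55 and 9.55 on the shHLX arrays, or 1.92-fold higher (adjusted p = 0.000275 by limma). Jam2, a junctional adhesion molecule that binds the Itga4 and Itgb1 pair, rose 1.72-fold (adjusted p = 0.000187), from 6.09 to 6.13 on the shControl arrays to 6.78 to 6.96 on the shHLX arrays. Lamb1, a laminin chain gene, rose 1.36-fold (adjusted p = 0.00157) and Thbs1, which encodes thrombospondin, rose 1.31-fold (adjusted p = 0.00129). Dropping any single array ended none of these 4 calls.

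Of 62 measured adaptor and signalling genes (66 listed), 7 were called higher, 3 were called lower and 52 were not called, or 16.1% called beside 6.18% of all genes, with a median change of -0.01. The largest change was that of Parvg, which encodes the parvin of blood cells, a link between integrin-linked kinase and actin. It gave 9.71, 9.77 and 9.70 on the shControl arrays and 8.91, 8.97 and 8.81 on the shHLX arrays, a log2 difference of -0.83 (SE 0.053, adjusted p = 9.33e-05 by limma). Dok2, an adaptor of myeloid kinase signalling, fell by 0.49, and Actn1, which encodes the actin crosslinker alpha-actinin, fell by 0.37 on the log2 scale.

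Higher in the same list were the Src family kinase gene Fyn (1.69-fold), Tes (1.47-fold), the tensin gene Tns3 (1.43-fold), Cytip (1.33-fold), whose product binds cytohesin, a partner of the Itgb2 tail, and Cib1 (1.26-fold). Fyn gave 6.51, 6.62 and 6.40 on the shControl arrays and 7.26, 7.34 and 7.21 on the shHLX arrays, with no overlap (limma adjusted p = 0.000447). The tetraspanin gene Cd151 (a log2 change of 0.24) and Rapgef1 (0.25), which encodes a Rap exchange factor, were called as well. Cd151 lost its call without shControl 1, shControl 2, shControl 3 or shHLX 1, and Rapgef1 without any 1 array but shControl 3, with adjusted p up to 0.0588 and 0.146. Both also lost it without shControl 1 and shHLX 3 together (0.105 and 0.194) and with the replicate number as a block (0.0593 and 0.0855), and Rapgef1 without variance moderation (0.138), as did Cib1 (0.0529).

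Markers of other cells were read beside these changes, as the sum of linear signals over each list and as calls. For comparison, 6.18% of all genes were called. None of 15 measured lymphoid markers (16 listed) was called. Their sums were 1112 to 1216 on the shControl arrays and 1047 to 1172 on the shHLX arrays, which overlap. None of 9 measured megakaryocyte markers (13 listed) was called (1150 to 1226 against 1031 to 1162). Nor was any of 9 mast cell and basophil markers (1338 to 1431 against 1284 to 1343). Of 6 measured erythroid markers (9 listed), none was called either (765 to 787 against 718 to 761, which do not overlap). Of 13 dendritic cell markers, 1 (7.69%), Flt3, was called, 1.56-fold higher (1408 to 1479 against 1369 to 1590). Itgae, an integrin gene already given above, is also on this list, so the list is not fully separate from the integrin genes. Of 14 stromal and endothelial markers, 2 (14.3%) were called, Acta2 1.9-fold higher and Cdh5 lower, with a log2 change of -2.68. The sums of this list overlapped (2807 to 2882 against 2659 to 2957). At an unadjusted p under 0.05, the lymphoid, megakaryocyte, mast cell and erythroid lists held 0, 2, 1 and 1 genes. These were 0.0%, 22.2%, 11.1% and 16.7% of the lists, where 19.4% of all genes had such a p.

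Among 16 measured myeloid markers (17 listed), Cd33 (4.39-fold) and the lysozyme gene Lyz2 (1.31-fold) rose. Mpo (-1.46) and Kit (-0.73) fell on the log2 scale, while the sums of the list overlapped (65387 to 66873 against 65405 to 66250). The other 12 were not called. Over all 16 markers, 7 changes were positive and 9 were negative, with a median of -0.02. Of the called markers, Cd33 and Lyz2 moved in the direction of Itgam, and Mpo and Kit in that of Itgal and Itgb5. Their part in the integrin changes was not tested. The array signals hold no zeros, so no marker can be called absent.

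**Figure D4:**
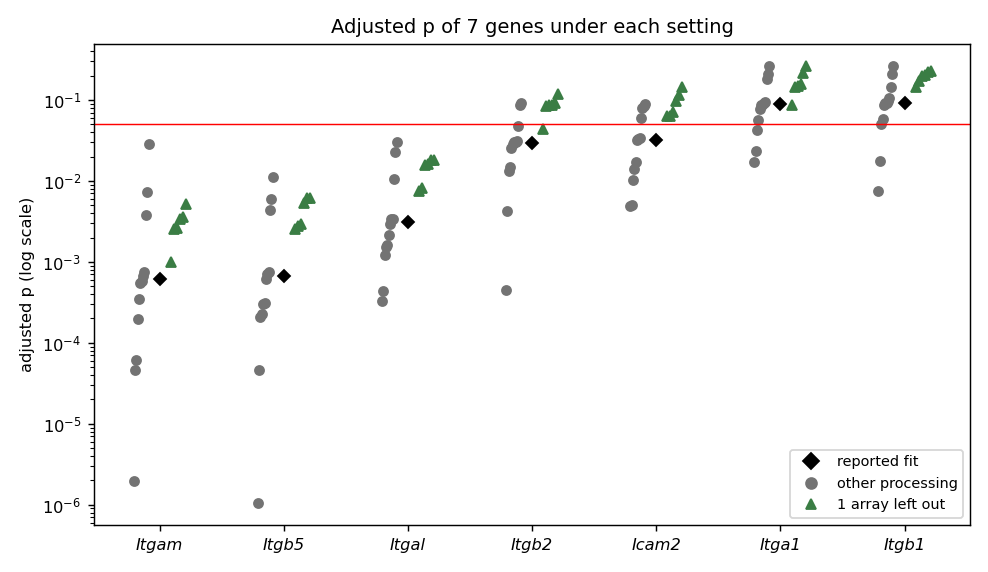
Adjusted p (log scale, vertical axis) of the 5 called genes and of Itga1 and Itgb1, with a diamond for the reported fit, circles for other processing and triangles for 1 array left out, and a red line at 0.05. Itgam, Itgb5 and Itgal stay under the line throughout (up to 0.0285, 0.0113 and 0.0305), while Itgb2 and Icam2 cross it.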

How the data were processed

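The deposited values are log2 signals of Affymetrix probe sets, with a column for each array. Affymetrix Power Tools 1.178 and RMA (background correction, quantile normalization and summary of probes) are named in the submitters' processing notes. The genome build was not given in the sources used here. Of 35556 probe sets, 21789 named exactly 1 gene in the platform annotation, and the brightest by mean over the 6 arrays stood for its gene. All 19938 genes so measured were kept, dim ones included. A two-sided test without covariates (lmFit and eBayes of limma 3.58.1, R 4.3.3) set shHLX against shControl, p-values were adjusted by Benjamini-Hochberg over all genes, and 0.05 was the threshold. Errors are SDs over arrays, whose number and spread limit the precision.

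The 33 genes and the further lists were chosen with earlier results of these data known. Every one of the 33 is accounted for. Values per array were to be given for called genes, their partners and the brightest; those of other integrin genes were added after they were seen. From the ligand and adaptor lists up to 4 genes of smallest p were to be named; the other called ones were added likewise. The code was tested on simulated data. Figures were drawn with matplotlib 3.10.9. Promoters and gene order came from RefSeq (GRCm38.p6), matched by symbol and Entrez identifier.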

Additional observations from a re-analysis of the deposited data

How the results depend on the processing

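Under 20 alternatives Itgam, Itgb5 and Itgal kept their direction, and they stayed called in all of them except that Itgb5 and Itgal did not reach a fold of 1.5. The count of called genes over all genes, 1233 as reported, was 2064 above the median signal, 2261 with an intensity trend, 260 at a fold of at least 1.5, 800 with the replicate number as a block, 741 without shControl 1 and shHLX 3 together (chosen after seeing the data), and 698 to 901 without 1 array. Integrin genes called higher, 2 as reported, were 4 above the median signal, with an intensity trend or at an adjusted p under 0.10, 1 at a fold of at least 1.5, with the replicate block or without shControl 1 and shHLX 3, and 1 to 2 without 1 array. Those called lower, 3 as reported, were 0 at a fold of at least 1.5. Without 1 array their count stayed 2 to 3, and it includes Itga11 without shControl 1 and Icam4 without shHLX 2, which were not called otherwise except for Itga11 without shControl 1 and shHLX 3. With the replicate block Itgb2 (adjusted p = 0.0923) and Icam2 (0.084) lost their calls. Same-numbered arrays did not deviate together (correlations of -0.17, 0.129 and -0.152). These 3 values show no pairing by number, but they are too few to exclude it. The shift of the Itgam and Itgal balance was 1.08 to 1.23 without 1 array, and 1.14 with the block.

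Of the 28 genes not called, 10 had a change that turned sign under some alternative, uncalled in each case. With array weights the changes of Itga2b, Itgax and Itgb8 were 0.027, 0.014 and 0.0089. Without shControl 1 and shHLX 3 those of Itga2b, Itgax, Itgb2l, Itgb7 and Fermt3 were 0.028, 0.060, 0.028, -0.063 and 0.013. Itgax was 0.010 after a second quantile normalization and 0.012 with arrays centred on their medians, and Itgad, -0.13 as reported, was 0.016 as the mean of its probe sets, which differ in sign. Without 1 array the changes ran from -0.040 to 0.090 for Itga2, -0.092 to 0.023 for Itga2b, -0.059 to 0.036 for Itgax, -0.12 to 0.013 for Itgb2l, -0.038 to 0.096 for Itgb3, -0.040 to 0.095 for Itgb7, -0.083 to 0.038 for Itgb8 and -0.12 to 0.020 for Icam1. The cause of the other turns was not tested. No detection values were used, so a change in a dim gene may be understated.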

Other observations

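The genes next to the 5 called integrin genes in RefSeq's order were read as well, taking the nearest measured protein-coding gene on each side. Muc13, a mucin gene beside Itgb5, gave 10.00, 9.98 and 9.93 on the shControl arrays and 9.36, 9.31 and 9.39 on the shHLX arrays, a log2 difference of -0.62 (SE 0.045, adjusted p = 0.000182 by limma). Muc13 and Itgb5 both fell on the shHLX arrays, while Umps on the other side of Itgb5 had a change of 0.09 (adjusted p = 0.357). A link between the 2 falls was not tested. For comparison, 6.18% of all genes were called, and 10.1% of those above the median signal. Ern1, a sensor gene of the unfolded protein response beside Icam2, rose 1.24-fold (adjusted p = 0.0168), opposite to Icam2, and lost its call without shControl 2 or shControl 3 (adjusted p up to 0.0755), without shControl 1 and shHLX 3 together (0.0503) and without variance moderation (0.0802). The neighbours of Itgam (Trim72 and Itgax), of Itgal (Sephs2 and Zfp768) and of Itgb2 (Fam207a and Pttg1ip), and Prr29 beside Icam2, were not called.

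The platform annotation also names Itgam together with the ribosomal protein gene Rpl35 on 3 bright probe sets, which entered no test. Their changes were -0.04, -0.06 and -0.04 on the log2 scale, against 0.75 for the probe set that names Itgam alone.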
